A study of Mus musculus with 15 samples.

Results

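Closed eyes of 3-day-old mice labelled Egr1-/- were compared with closed eyes of an Egr1+/- mouse, so that the state of the eyelids was the same in both groups and the genotype differed. The comparison was made up of the day 3 libraries whose titles say that the eyelid was closed, which were 4 of the 15 RNA-seq libraries of the series. The labelled-knockout group held 2 eyes of 2 mice, the eye marked OS of mouse E24 and the eye marked OD of mouse E29 (OD and OS are the usual shorthand for the right and the left eye). The control group held both eyes of a single heterozygous mouse, E28, so that there were 2 mice against 1 mouse. The other eye of E24 and of E29 was open, and another labelled-knockout mouse, E32, had both eyes open. These 4 open eyes were not part of the contrast and entered the test for the filter, the scaling and the estimate of spread. The fit had no term for the mouse, so that the closed and the open eye of E24, and of E29, counted as independent samples.

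All mice were BALB/c. They came from an Egr1-/- C57BL/6 line that had been backcrossed to BALB/c for 5 or 4 generations, and the series describes the heterozygotes as littermates of the knockouts. Each library was made from poly(A)+ RNA of a whole eye with its eyelids. Eyelids, cornea, lens, retina, muscle and blood are therefore mixed in every value, and fewer cells of a type cannot be told apart from less RNA per cell. The heterozygous controls carry 1 disrupted copy themselves, and the day 3 eyes include no wild type.

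Egr1 is a zinc finger transcription factor and an immediate-early gene, switched on within minutes by growth factors, mechanical strain and wounding, and held in check by the Nab corepressors. In the mouse the eyelids grow over the cornea before birth and fuse by way of the epithelium at their edges, and they separate again only after birth. Ligands of the EGF receptor, activin and the JNK kinases drive the epithelial edges forward, and mice that lack parts of these pathways can be born with open eyes.

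The 4 closed-eye libraries held 34702734 (E24), 33682912 (E29), 43907093 (E28 OD) and 31981438 (E28 OS) reads in annotated transcripts. No library repeated another: the chi-square per degree of freedom between pairs of closed eyes was 36 to 64.2. Values are given below as counts scaled to the library size after TMM normalisation (CPM), 1 value per eye. Lens and retina were plainly present, with Cryaa, the main alpha-crystallin of the lens, at 57530 and 43760 CPM in the labelled-knockout closed eyes and 63660 and 55690 CPM in the heterozygous eyes. Genes best known from the lung were present as well. Sftpc, a surfactant protein made in lung alveoli, was at 29.1 CPM in E24 and 691 CPM in E29, and at 272 and 199 CPM in the OD and OS eyes of E28. Scgb1a1, the secretoglobin of airway club cells, was at 34.5, 637, 221 and 269 CPM in the same order. The sum over 12 lung epithelium genes, a list written after these values were seen, was 93.9 CPM in E24, 2105 CPM in E29 and 816 and 742 CPM in the heterozygous eyes, so that both heterozygous eyes lay between the labelled-knockout eyes. Of the 12 lung genes none was without reads in the closed eyes. Mag, a myelin protein, went by mouse: it was at 1.38 CPM in E24 and 8.54 CPM in E29, against 1.08 and 1.01 CPM in E28. Gfap, the filament of astrocytes and Müller glia, was at 474.8 and 297 CPM in the labelled-knockout eyes and at 436 and 8.39 CPM in the 2 eyes of the same heterozygous mouse. Ddx3y, a Y-linked gene, was read in all 8 day 3 eyes, at 17.6 and 18.1 CPM in E24, 9.01 and 9.66 CPM in E28 and within that range in the others, and Xist was at or below 0.918 CPM. The part of the lung, Mag and Gfap reads in the results below was not tested beyond giving values without single eyes.

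**Figure D1:**
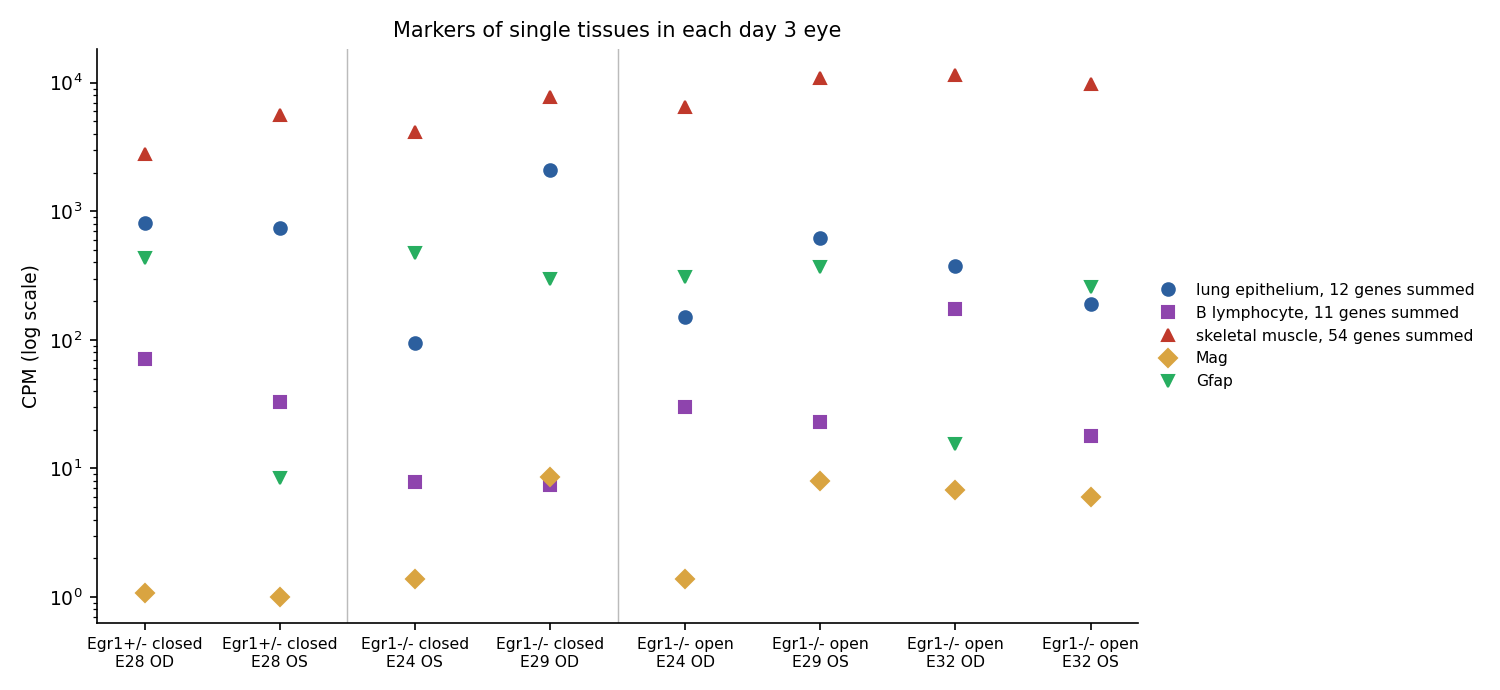
Summed CPM of 12 lung epithelium genes, 11 B lymphocyte genes and 54 skeletal muscle genes, and the CPM of Mag and Gfap, in each of the 8 eyes of day 3 (log scale, 1 point per eye, no error bars). Lung genes were lowest in E24 and highest in the closed eye of E29, Mag went by mouse, and Gfap was low in the OS eye of E28 and the OD eye of E32.

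Egr1 itself was read in every library and was higher in the eyes labelled knockout. It was at 156 CPM in E24 and 221 CPM in E29, against 99.0 and 110.1 CPM in the heterozygous eyes, and at 161, 296, 339.9 and 366 CPM in the open eyes. The groups of closed eyes did not overlap, with the labelled-knockout eyes above, a log2 fold change of 0.87 ± 0.51 (SE, 2 mice against 1 mouse) and an unadjusted p of 0.137 in edgeR's quasi-likelihood test. Egr1 was thus not lower in the libraries labelled knockout, and they are called by their label throughout. The deposited counts give 1 value per transcript, so that reads from a disrupted allele that is still transcribed cannot be told apart from reads of an intact one. In the newborn libraries Egr1 was at 214 and 273 CPM in the labelled knockouts and 47.0 and 60.8 CPM in the wild types.

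No gene differed between the labelled-knockout and the heterozygous closed eyes at a Benjamini-Hochberg adjusted p under 0.05. Of 16165 genes tested, 0 passed in either direction (percent called 0), and the smallest adjusted p in edgeR's quasi-likelihood test was 1. At an unadjusted p under 0.05 there were 142 genes (0.878%), 28 higher and 114 lower in the labelled-knockout eyes, and the smallest unadjusted p was 0.00127. That share is below the one the threshold itself would give if no gene differed. The test was thus conservative here, and the count of 0 does not show that the genotypes are alike. DESeq2 on the same counts called 0 genes, with 204 genes at an unadjusted p under 0.05 and a smallest adjusted p of 0.0565, and limma-voom over all 8 eyes called 0 genes with 73 at an unadjusted p under 0.05. The fitted differences were small for most genes, with a median absolute log2 fold change of 0.17. With 1 heterozygous mouse the intervals were wide. Of 13080 genes with a mean of at least 1 RPKM (a read count divided by exon length and by library size, as the authors gave it) in either group, 7149 (54.7%) had a 95% interval that lay within a 2-fold difference (7162 of all 16165 genes, 44.3%), and the median half-width of the interval was 0.77 on the log2 scale. For the remaining genes a 2-fold difference was not excluded by the interval.

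Differences between genotypes were of the size of differences within them. Over the same 13080 genes, on the scale of log2(CPM + 0.5), the median absolute difference was 0.24 between the eyes of the heterozygous mouse and 0.23 between the labelled-knockout closed eyes. A labelled-knockout eye set against a heterozygous eye gave 0.22, 0.20, 0.23 and 0.20 in the 4 possible pairs. Between 405 and 656 genes differed over 2-fold in those 4 pairs, against 553 between the eyes of E28 and 610 between E24 and E29. The eyes of E32, both open and both of 1 mouse, stood farther apart, with a median of 0.28 and 846 genes over 2-fold. Over 8-fold, 71 genes differed between E24 and E29, and all 71 were higher in E29, the eye with the most reads of lung genes.

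**Figure D2:**
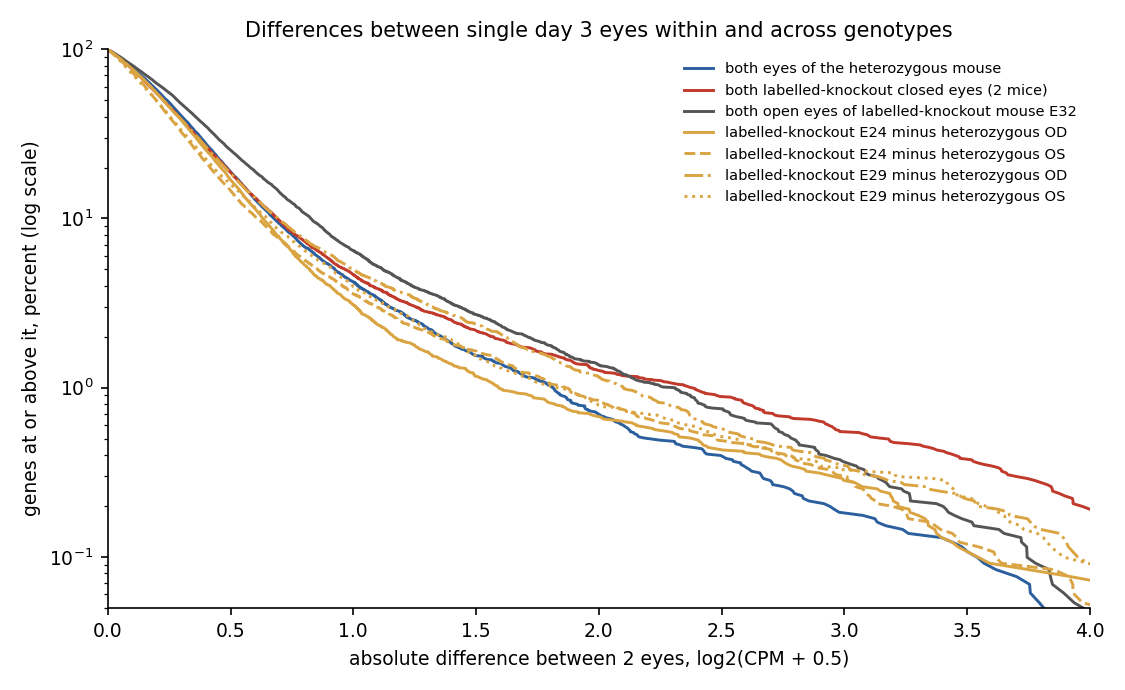
Share of 13080 genes (percent, log scale) whose absolute difference between 2 single eyes, in log2(CPM + 0.5), is at or above the value on the x axis. Lines for a labelled-knockout against a heterozygous eye run among the lines for eyes of 1 genotype: 405 to 656 genes passed 2-fold across genotypes, and 553, 610 and 846 within them.

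Counted eye by eye, both labelled-knockout closed eyes lay above both heterozygous eyes for 2031 genes (12.6% of those tested) and below both for 2340 genes (14.5%). With the authors' own library totals in place of TMM scaling the counts were 2725 and 1732, so that the balance of higher and lower genes followed the scaling. These shares are the background for the gene groups below. Where a single labelled-knockout eye is set against both heterozygous eyes, the shares of all genes are larger: E24 alone lay above for 31.2% and below for 30.2%, and E29 alone above for 28.9% and below for 33.4%. Among the 142 genes with a small unadjusted p, 84 differed over 2-fold between the eyes of the heterozygous mouse, 80 of them lower in the labelled knockouts. Over 8-fold, 20 of the 142 differed between these eyes. Of the 13080 genes at 1 RPKM or more, 553 (4.23%) differed over 2-fold between the same eyes. The groups did not overlap for 93 of the 142 genes (65.5%), a share that the choice by a small p raises. How many rested on 1 of the 2 heterozygous eyes was not counted.

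Higher values in the labelled-knockout closed eyes came with the smallest p for Actn3, for the macrophage receptors Csf1r and Fcgr3 and for 7 other genes, none of which passed the test. Actn3, the alpha-actinin of fast muscle fibres, was at 11.1 and 14.97 CPM against 3.88 and 5.90 CPM, a log2 fold change of 1.46 ± 0.38 (SE). Csf1r, the receptor for the macrophage growth factor CSF-1, was at 85.2 and 86.5 CPM against 55.2 and 54.2 CPM, a log2 fold change of 0.65 ± 0.23. Its eyes agreed closely within each group, though the heterozygous pair came from 1 mouse. Fcgr3, an activating Fc receptor, was at 4.52 and 5.14 CPM against 1.82 and 2.45 CPM, a log2 fold change of 1.21 ± 0.36. The open eyes of the labelled knockouts lay above both heterozygous eyes in all 3 genes: Actn3 ran from 14.2 to 20.1 CPM, Csf1r from 82.3 to 131 CPM and Fcgr3 from 10.1 to 14.0 CPM. They include the fellow eyes of E24 and E29, and their eyelid state was not that of the heterozygous eyes. Open minus closed, in log2(CPM + 0.5), the macrophage list had medians of 0.72 in E24 and 0.40 in E29. The muscle list had 0.63 and 0.40.

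Of the other 7 genes, 4 were well read in both labelled-knockout eyes and 3 rested on 1 eye or a few reads. Plek, a protein kinase C substrate of blood cells and platelets, was at 5.42 and 9.08 CPM against 1.89 and 3.45 CPM. F13a1, the clotting factor XIII subunit that tissue macrophages also make, was at 13.5 and 11.9 CPM against 7.19 and 7.70 CPM. Galnt11, a glycosyltransferase that starts O-linked chains, was at 18.8 and 19.3 CPM against 11.1 and 12.9 CPM. Pcdhb6, a clustered protocadherin with many near copies so that its count is uncertain, was at 10.0 and 13.4 CPM against 6.32 and 3.02 CPM. The naming rule asked for both labelled-knockout eyes above both heterozygous eyes, so that this order is no separate result for any of the 7 genes. Otud6a, a deubiquitinase, and Pdcd1, the PD-1 receptor of lymphocytes, were high in E29 alone, at 11.2 and 7.46 CPM, with 0.0815 CPM each in E24 and no reads in either heterozygous eye. Against the floor of 3 reads over the heterozygous group they were at least 96.0-fold and at least 64.2-fold higher, limits that cover counting error only. Ccl5, a T cell chemokine, had 35 reads in the labelled-knockout eyes and 1 in the heterozygous eyes, a ratio of 37.0 (95% counting interval 6.23 to 1504).

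Lower values in the labelled-knockout closed eyes had smaller p but rested on uneven heterozygous eyes. F7, coagulation factor VII, was at 0.0407 and 0.124 CPM against 8.90 CPM in the OD eye and 0.393 CPM in the OS eye of E28. Gcnt1, an enzyme that branches O-linked glycans, was at 0.978 and 1.20 CPM against 17.3 and 2.14 CPM. F2rl3, the thrombin receptor PAR4, was at 0.448 and 0.581 CPM against 8.62 and 1.97 CPM. Centb1, an Arf GTPase-activating protein, was at 0.244 and 0.166 CPM against 7.23 and 0.612 CPM. In all 4 the OD eye of E28 was several fold above its fellow eye, and the log2 fold changes were -5.89 ± 1.05 (F7), -3.27 ± 0.68 (Gcnt1), -3.45 ± 0.69 (F2rl3) and -4.36 ± 1.01 (Centb1). Spata3, a testis gene, had 290 reads in the heterozygous eyes and none in the labelled-knockout eyes, at least 91.3-fold lower against the floor of 3 reads over the group. It was at 10.1 CPM in the OD eye and 0.0437 CPM in the OS eye, so that almost all of its reads came from 1 eye. Capsl, a calcyphosin-like protein, had 125 reads in the heterozygous eyes and 1 in the labelled-knockout eyes, and stood at 4.08 and 0.350 CPM in the OD and OS eyes of E28.

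B lymphocyte genes made up part of the lower group. The signalling chain Cd79b was at 4.32 and 4.77 CPM against 24.4 and 9.05 CPM, and its partner Cd79a was at 1.71 and 1.12 CPM against 17.7 and 4.59 CPM. Pax5, the factor that fixes B cell identity, had 1 read in the labelled-knockout eyes and 86 in the heterozygous eyes, and was highest in the OS eye at 3.02 CPM. Ikzf3, a transcription factor of lymphocytes, was at 0.163 and 0.373 CPM against 4.26 and 9.62 CPM. The groups did not overlap for these 4 genes, which was a condition of the choice for those named by the smallest p in that direction. High values also occurred in a labelled-knockout eye: the open OD eye of E32 held 61.3 CPM of Cd79a and 48.4 CPM of Cd79b. Over 11 B lymphocyte genes, a list written after these values were seen, the sum was 7.82 and 7.38 CPM in the labelled-knockout closed eyes, 71.0 and 32.6 CPM in the heterozygous eyes, and 18.0 to 173 CPM in the open eyes. Ms4a1, the CD20 antigen of mature B cells, stayed at or below 0.6995 CPM in all 4 closed eyes.

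**Figure D3:**
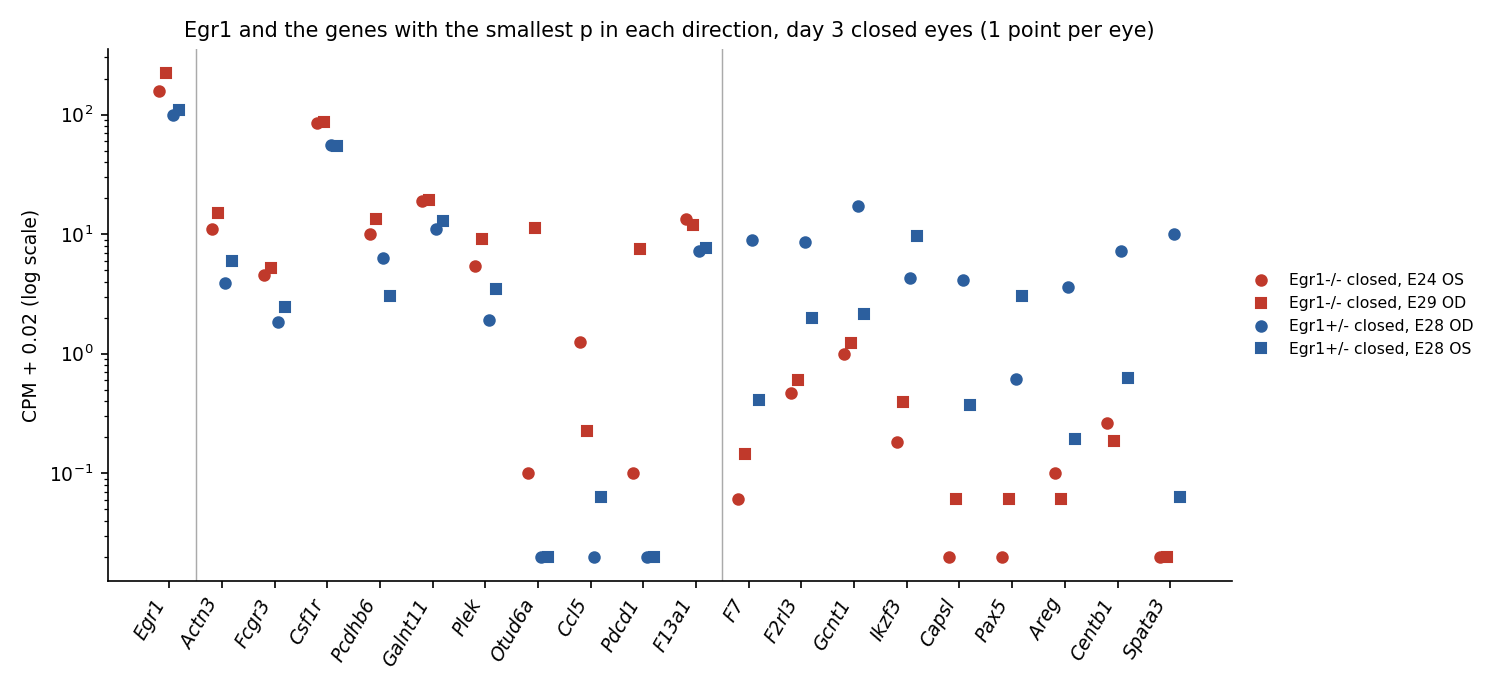
CPM plus 0.02 (log scale) in each of the 4 closed eyes for Egr1, the 10 genes with the smallest p among those higher in the labelled knockouts and 9 of those lower; no gene passed the test. Csf1r, Galnt11 and F13a1 have close pairs of eyes within each genotype, while Otud6a and Pdcd1 rest on E29 and F7, Capsl and Spata3 on the OD eye of E28.

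The Egr family and the Nab corepressors did not differ beyond the spread between eyes, and 0 of 5 passed. Nab1 was at 16.1 and 17.6 CPM against 18.2 and 19.1 CPM. Nab2, itself induced by Egr1, was at 34.4 and 81.2 CPM against 49.1 and 50.9 CPM, so that E24 lay below and E29 above both heterozygous eyes. Egr3 was at 0.326 and 1.20 CPM against 0.140 and 0.525 CPM, and Egr4 at 0.285 and 1.70 CPM against 0.559 and 0.262 CPM, both near the lowest readable level. Of 20 genes described as Egr1 targets 0 passed. Both labelled-knockout eyes were above both heterozygous eyes for 1 (5%, against 12.6% of all genes) and below for 3 (15%, against 14.5%). F3, tissue factor, was at 8.59 and 9.45 CPM against 16.4 and 12.6 CPM, and Gdf15, a stress cytokine, at 0.937 and 1.99 CPM against 3.77 and 2.49 CPM, both lower without overlap. Cd44, the hyaluronan receptor, was at 61.05 and 58.5 CPM against 48.7 and 57.3 CPM, and Igf2, a fetal growth factor, at 1045 and 1505 CPM against 871 and 1159 CPM with overlapping eyes. The median log2 fold change of the targets was 0.19, against -0.0035 for all genes, -0.19 without E29 and 0.09 without the OD eye of E28.

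Of 35 immediate-early genes 0 passed, and their median log2 fold change was -0.03, or -0.30 without E29 and 0.08 without E24. Both labelled-knockout eyes were below both heterozygous eyes for 7 of them (20%, against 14.5% of all genes) and above for 0 (12.6% of all genes). Zfp36, which destabilises cytokine mRNAs, was at 14.99 and 20.9 CPM against 36.0 and 21.6 CPM. Jund, a subunit of AP-1, was at 674 and 591 CPM against 745 and 802 CPM. Nr4a2, an orphan nuclear receptor, was at 12.1 and 11.4 CPM against 14.3 and 14.1 CPM. The log2 fold changes of these 3 were -0.71 ± 0.49, -0.28 ± 0.21 and -0.27 ± 0.26 (SE).

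Genes with a known part in eyelid closure lay on both sides, 21 of 41 with a positive and 20 with a negative fitted difference, and 0 passed. Both labelled-knockout eyes were above both heterozygous eyes for 5 (12.2%, against 12.6% of all genes) and below for 9 (21.95%, against 14.5%). Areg, a ligand of the EGF receptor, had 3 reads in the labelled-knockout closed eyes and 107 in the heterozygous eyes, a ratio of 33.7 (95% counting interval 11.2 to 166), but it stood at 3.60 CPM in the OD and 0.175 CPM in the OS eye of E28. In the open eyes of the labelled knockouts Areg ran from 0.825 to 5.26 CPM. Of the other EGF receptor ligands, Tgfa overlapped at 15.3 and 8.91 CPM against 14.3 and 9.27 CPM. Hbegf overlapped at 15.3 and 16.7 CPM against 22.9 and 14.2 CPM. Tgfa and Hbegf were picked for display after their values were seen, and values of the listed ligands Ereg and Btc are not given. Bmpr1a, a BMP receptor, was at 52.5 and 62.5 CPM against 43.4 and 51.7 CPM. Mapk8, the kinase JNK1, was at 18.4 and 14.97 CPM against 13.6 and 12.2 CPM. Dkk2, a Wnt antagonist of the eyelid mesenchyme, was at 38.4 and 46.2 CPM against 36.1 and 25.9 CPM. In these last 3 the labelled-knockout eyes were above without overlap, by log2 fold changes of 0.29 ± 0.25, 0.37 ± 0.33 and 0.43 ± 0.40 (SE), each close to its error.

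Many keratins and junction genes of the surface epithelium had lower values in the labelled-knockout closed eyes, more so in E24 than in E29. But 0 of 27 basal epidermis genes and 0 of 33 conjunctival and mucosal genes passed. In the basal list both labelled-knockout eyes were below both heterozygous eyes for 14 of 27 genes (51.9%, against 14.5% of all genes) and above for 0, with a median log2 fold change of -0.51. Krt14, the basal keratin, was at 99.2 and 153 CPM against 167 and 249 CPM. Krt17, a keratin of activated and appendage epithelium, was at 23.0 and 33.4 CPM against 39.1 and 82.2 CPM. Dsp and Pkp1, the desmosome proteins desmoplakin and plakophilin 1, were at 79.7 and 116 CPM against 124 and 199 CPM, and at 31.1 and 34.8 CPM against 49.8 and 71.0 CPM. In each of these 4 genes E24 was lowest, and the OS eye of E28 was highest. The eyes of one genotype differed by as much as the groups, with a median over the list of -0.50 between the OD and OS eyes of E28 and -0.49 between E24 and E29, in log2(CPM + 0.5). Set alone against both heterozygous eyes, E24 was below them for 22 of the 27 genes (30.2% of all genes) and E29 for 16 (33.4% of all genes). The median of the list was -0.32 without E24, -0.74 without E29, -0.74 without the OD eye and -0.27 without the OS eye of E28, and -0.34 with limma-voom over all 8 eyes.

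In the mucosal list 11 of 33 genes (33.3%, against 14.5% of all genes) were lower without overlap. Only 1 was higher (3.03%, against 12.6%), and the median log2 fold change was -0.59. E24 alone was below both heterozygous eyes for 23 genes (30.2% of all genes) and above for 3 (31.2% of all genes). E29 alone was below both for 12 (33.4% of all genes) and above for 6 (28.9% of all genes). The sum over the list overlapped, at 452.5 and 834 CPM against 721 and 1271 CPM. Krt4, the keratin of conjunctival and other mucosal epithelium, was at 27.04 and 30.98 CPM against 77.2 and 115 CPM, a log2 fold change of -1.69 ± 0.72 (SE) and an unadjusted p of 0.057 in edgeR's test. Elf3, an epithelial transcription factor, was at 10.3 and 14.7 CPM against 15.4 and 32.4 CPM. Muc5ac, the mucin of goblet cells, had 2 reads in the labelled-knockout and 56 in the heterozygous eyes. Without the OS eye of E28 the median of this list had the opposite sign, at 0.33. It was -1.60 without E29, -1.05 without the OD eye of E28, -0.23 without E24 and -0.26 with limma-voom over all 8 eyes.

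The same genes stood far higher in the open eyes of the labelled knockouts, which is given here for scale. Krt14 ran from 1306 to 3345 CPM, Krt17 from 432 to 1947 CPM and Krt4 from 241 to 884 CPM in the open eyes. The sum over the basal list was 2354 and 3128 CPM in the labelled-knockout closed eyes, 3440 and 4385 CPM in the heterozygous eyes and 7044 to 20700 CPM in the open eyes. No closed eye of either genotype reached the level of an open eye in the sum of the basal list.

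Wound and stress genes of keratinocytes were low in closed eyes of both genotypes. Krt6b, a keratin induced by wounding whose count may share reads with Krt6a, was at 43.8 and 50.3 CPM in the labelled-knockout and 72.6 and 78.4 CPM in the heterozygous eyes, a log2 fold change of -0.67 ± 0.30 (SE), and at 762 to 1181 CPM in the open eyes. Sprr1b, a cross-linked envelope precursor, had 11 reads in the labelled-knockout closed eyes and 0 in the heterozygous eyes, at least 3.88-fold higher against the floor of 3 reads over the group, and ran from 10.6 to 31.9 CPM in the open eyes. Of 42 wound and stress genes tested 0 passed, and 8 had no read in any closed eye, so that no median is given. Without overlap 2 were higher (4.76%, against 12.6% of all genes) and 6 lower (14.3%, against 14.5%). Of 53 cornified epidermis genes tested 0 passed, 3 (5.66%) were higher and 7 (13.2%) lower without overlap. Klk11, a kallikrein protease, was at 0.326 and 0.0415 CPM against 1.43 and 1.31 CPM, and Krt16, the partner of Krt6, at 12.3 and 17.6 CPM against 15.9 and 27.1 CPM with overlapping eyes. Lass3, a ceramide synthase, was at 0.896 and 8.79 CPM against 0.489 and 0.743 CPM, mostly from E29. Of 55 listed cornified genes 14 had no read in any closed eye.

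**Figure D4:**
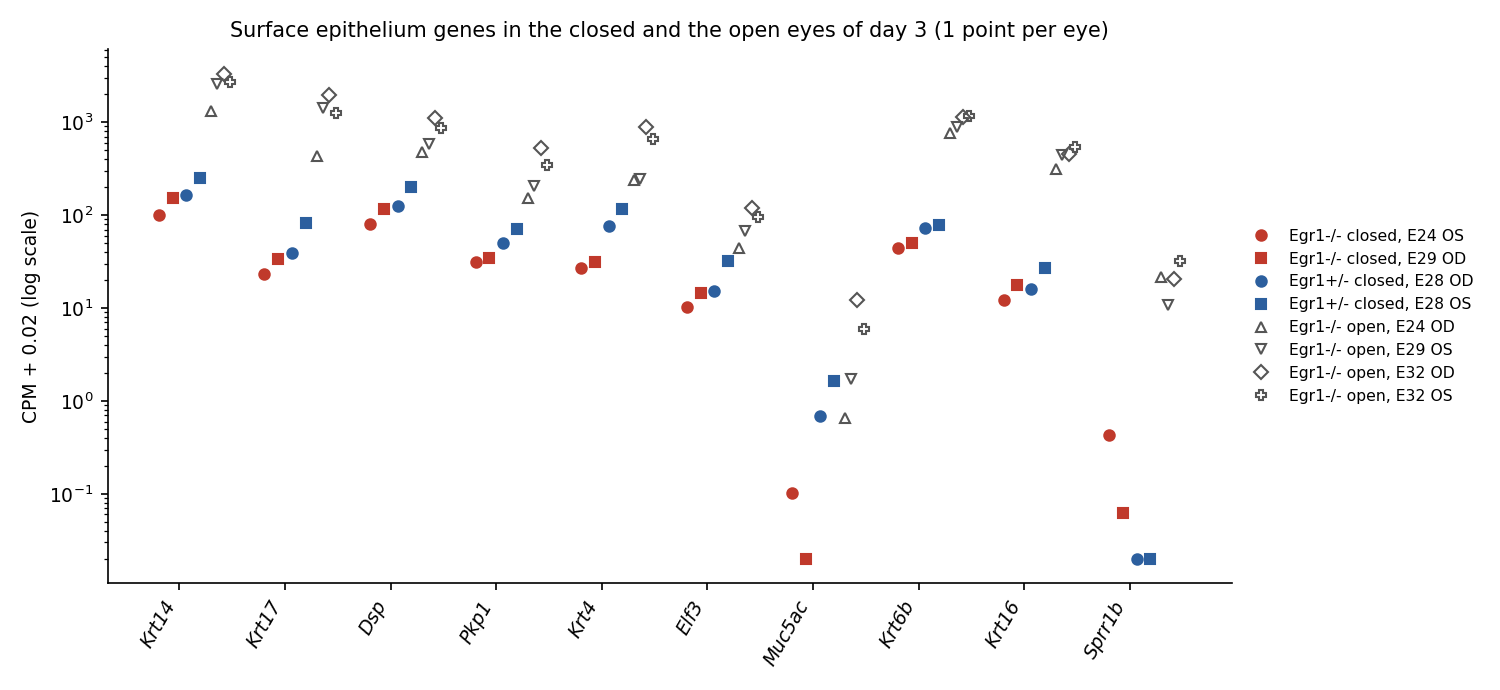
CPM plus 0.02 (log scale) of 10 surface epithelium genes in the 2 labelled-knockout closed eyes, the 2 heterozygous closed eyes and the 4 labelled-knockout open eyes, 1 point per eye. Krt14, Krt17, Dsp, Pkp1, Krt4, Elf3, Muc5ac and Krt6b are lower in both labelled-knockout closed eyes than in both heterozygous eyes, Krt16 overlaps, and Sprr1b has no reads in the heterozygous eyes.

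Macrophage genes leaned the other way. Of 33 tested 0 passed, 10 (30.3%, against 12.6% of all genes) were higher without overlap and 0 were lower, and the median log2 fold change was 0.35. Besides Csf1r and Fcgr3, the inhibitory Fc receptor Fcgr2b was at 3.06 and 2.90 CPM against 1.08 and 1.05 CPM, a log2 fold change of 1.48 ± 0.62 (SE). Ccr2, the chemokine receptor of inflammatory monocytes, had 21 reads in the labelled-knockout eyes and 0 in the heterozygous eyes, at least 7.41-fold higher against the floor of 3 reads over the group. The sum over the list did not separate the groups, at 388 and 813 CPM against 546 and 379 CPM. Cd68 and Emr1, general macrophage markers picked after their values were seen, overlapped, at 7.005 and 4.69 CPM against 4.78 and 5.99 CPM and at 5.82 and 4.64 CPM against 3.07 and 5.42 CPM. E29 had the highest sum of both the macrophage list and the lung list among the closed eyes, and the part of the one in the other was not tested. Set alone against both heterozygous eyes, E24 was above them for 15 macrophage genes (31.2% of all genes) and below for 6 (30.2% of all genes). E29 was above them for 19 (28.9% of all genes) and below for 2 (33.4% of all genes). The median of the list was 0.64 without E24, 0.25 without E29, 0.77 without the OD eye and 0.43 without the OS eye of E28.

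Of 39 genes of neutrophils and acute inflammation 0 passed. Without overlap 4 were higher (10.3%, against 12.6% of all genes) and 4 lower (10.3%, against 14.5%). Of the 4 members with the smallest p, 3 came from 1 heterozygous eye. Ccl20, a chemokine of mucosal epithelium, had 97 reads, all in the OD eye of E28. The granulocyte growth factor Csf2 had 85 reads and the neutrophil chemokine Cxcl5 had 53, all in its OS eye. Clec4e, a lectin receptor of activated macrophages and neutrophils, had 48 reads in the heterozygous eyes, at 0.244 CPM in the OD and 1.79 CPM in the OS eye, and was at least 15.1-fold lower in the labelled-knockout eyes against a floor of 3 reads over the group. All 4 had no reads in the labelled-knockout closed eyes.

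Skeletal muscle genes, from the muscles that move the eye and lids, had positive fitted differences for 50 of 53 genes with a median of 0.50. But 0 passed, and 1 (1.89%, against 12.6% of all genes) was higher without overlap. Myh1, a fast myosin, was at 31.9 and 41.8 CPM against 11.7 and 33.8 CPM, and Myoz1, a protein of the fast-fibre Z disc, at 13.9 and 19.4 CPM against 4.26 and 16.2 CPM. Xirp1, an actin-binding protein of muscle, was at 12.7 and 24.3 CPM against 4.99 and 13.5 CPM. The sum over the list was 4135 CPM in E24 and 7725 CPM in E29 against 2788 and 5575 CPM in the eyes of E28, so that E24 lay between the heterozygous eyes. Within E28 the OD eye was below the OS eye by a median of -1.08 on the log2 scale over the muscle list. The median of the list was -0.09 without E29, 0.89 without E24, 0.05 without the OD eye and 1.22 without the OS eye of E28.

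Collagen and matrix genes had a median of 0.17 with 0 of 45 passing, 33 fitted differences positive and 12 negative. Without overlap 7 were higher (15.6%, against 12.6% of all genes) and 1 lower (2.2%, against 14.5%). The median was -0.07 without E29, 0.39 without E24 and 0.10 without the OS eye of E28. Dcn and Lum, the small proteoglycans decorin and lumican of cornea and skin, were at 138 and 168 CPM against 90.6 and 110.2 CPM, and at 59.1 and 83.7 CPM against 46.6 and 55.3 CPM. Fbln5, an elastic fibre protein, was at 75.8 and 99.8 CPM against 65.0 and 64.0 CPM, and the gelatinase Mmp2 was at 219 and 348 CPM against 210.3 and 206 CPM. Among nerve and Schwann cell genes 0 of 17 passed. Beside Mag, given above, Pmp22, a myelin protein that other cells also make, was at 127 and 153 CPM against 121 and 107 CPM.

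Inside the eyeball, genes of the retinal progenitor had lower values in the labelled-knockout closed eyes. Of 23 tested 0 passed, 11 (47.8%, against 14.5% of all genes) were lower without overlap and 0 were higher, with a median log2 fold change of -0.26. Set alone against both heterozygous eyes, E24 was below them for 13 of the 23 genes (30.2% of all genes) and E29 for 19 (33.4% of all genes). The median of the list was -0.14 without E29, -0.11 without the OD eye of E28 and -0.44 with limma-voom over all 8 eyes. Notch1, the receptor that keeps progenitors dividing, was at 1057 and 1300 CPM against 2066 and 1474 CPM, and its effector Hes1 at 43.2 and 50.9 CPM against 67.5 and 64.4 CPM. Six3, a transcription factor of the early eye field, was at 756 and 664 CPM against 1028 and 934 CPM. The Notch ligand Dll1 was at 128 and 114 CPM against 156 and 137 CPM. The log2 fold changes were -0.61 ± 0.36, -0.49 ± 0.31, -0.47 ± 0.55 and -0.28 ± 0.36 (SE) in the order given. Of 42 inner retina genes 0 passed, with 20 fitted differences positive and 22 negative. Without overlap 2 were higher (4.76%, against 12.6% of all genes) and 10 lower (23.8%, against 14.5%). E24 alone was above both heterozygous eyes for 13 of the 42 genes (31.2% of all genes) and below for 14 (30.2% of all genes). E29 alone was above both for 7 (28.9% of all genes) and below for 22 (33.4% of all genes). Ptf1a, which specifies amacrine and horizontal cells, was at 29.7 and 26.4 CPM against 56.6 and 37.4 CPM, and Onecut1, a factor of horizontal cells, at 8.23 and 7.92 CPM against 16.3 and 9.93 CPM. Rod genes lay on opposite sides in the labelled-knockout eyes. Of 38 tested 0 passed, and 3 (7.9%, against 12.6% of all genes) were higher and 0 lower without overlap. But E24 alone was above both heterozygous eyes for 26 (31.2% of all genes) and E29 alone was below both for 25 (33.4% of all genes). The median log2 fold change was 0.15, or 0.47 without E29, -0.31 without E24, 0.09 without the OS eye of E28 and -0.16 with limma-voom over all 8 eyes.

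In the lens list 31 of 37 fitted differences were negative, with a median of -0.18 and 0 passing. Without overlap 6 (16.2%, against 14.5% of all genes) were lower and 0 higher. Foxe3, the transcription factor of the dividing anterior lens epithelium, was at 83.0 and 69.3 CPM against 139.8 and 111 CPM, a log2 fold change of -0.74 ± 0.28 (SE) and an unadjusted p of 0.0392 in edgeR's test. Crybb1, a beta-crystallin of lens fibres, was at 20580 and 15270 CPM against 23390 and 22350 CPM, and Grifin, a galectin-like lens protein, at 79.8 and 72.4 CPM against 119 and 82.4 CPM. The median of the lens list was 0.03 without E29 and -0.47 without E24.

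**Figure D5:**
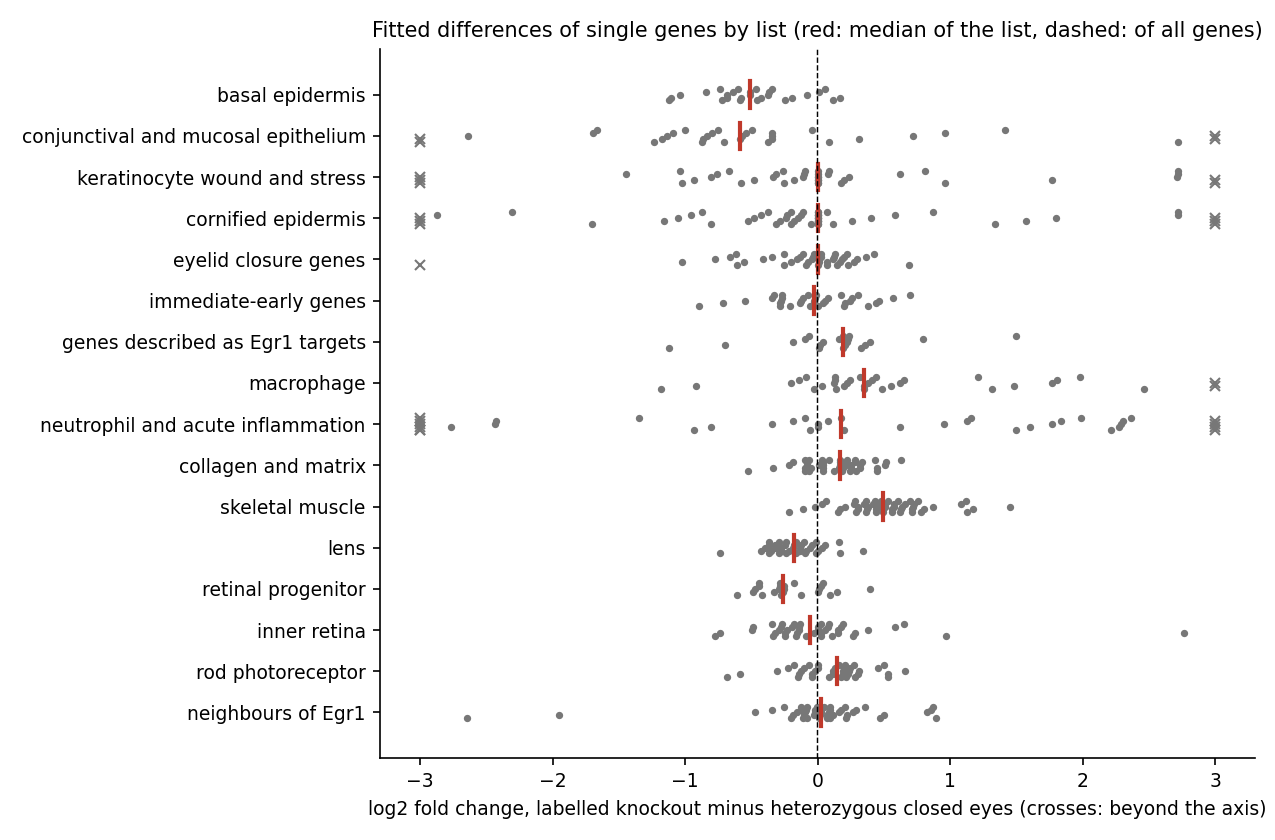
Log2 fold change of each tested gene (grey, crosses beyond 3 in either direction), labelled knockout minus heterozygous closed eyes, by list, with the median of the list in red and that of all genes as a dashed line; no gene passed the test. The basal and mucosal epithelium medians lie at -0.51 and -0.59, the macrophage and muscle medians at 0.35 and 0.50, and the muscle median was -0.09 without E29; the medians of the wound and cornified lists rest on 8 and 13 members without a read in any closed eye.

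Adipocyte genes had positive fitted differences for 10 of 13 tested, with a median of 0.49 and 0 passing. Without overlap 3 (23.1%, against 12.6% of all genes) were higher and 0 lower. Car3, a carbonic anhydrase of fat and muscle, was at 35.8 and 32.01 CPM against 18.9 and 30.65 CPM. The median of this list was -0.07 without E29, 0.87 without the OS eye of E28 and 0.12 at a mean of at least 5 RPKM. In the remaining groups 0 genes passed as well. The median log2 fold changes were -0.04 for 32 cell cycle genes, 0.01 for 16 circadian clock genes, -0.04 for 15 ERK feedback genes and -0.05 for 34 Wnt pathway genes. The lists for cornea, hair follicle, meibomian and lacrimal gland, interferon response, cones, pigment cells, blood cells, vessels, cartilage, nerve and retinoic acid had medians from -0.12 (blood cells) to 0.09 (nerve). In these lists the share higher without overlap ran from 0% (blood cells, vessels) to 27.8% (cornea), against 12.6% of all genes. The share lower ran from 4.5% (pigment cells, vessels) to 28.6% (cartilage), against 14.5%. Of 38 hair follicle genes tested, 8 had no read in any closed eye, and the median of that list includes them. Without E29 the blood cell median was -1.89 and the lacrimal median -1.63. Among 30 stress, hypoxia and metallothionein genes 3 were higher (10%, against 12.6% of all genes) and 5 lower (16.7%, against 14.5%) without overlap. Their median was -0.06, with 11 fitted differences positive and 18 negative. Mt2 and Mt1, metal-binding stress proteins, were at 2.53 and 3.15 CPM against 5.38 and 9.53 CPM and at 14.6 and 27.6 CPM against 42.0 and 30.4 CPM, and Egln3, an oxygen-sensing hydroxylase, at 18.4 and 17.6 CPM against 27.5 and 27.4 CPM.

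A line moved between strains can keep donor chromosome around the targeted gene, so the 25 genes on each side of Egr1 were read apart. Of the 50 neighbours 46 were tested and 0 passed, with 9 (19.6%) higher and 4 (8.70%) lower without overlap, beside 12.6% and 14.5% of all genes. Their median log2 fold change was 0.02, and none had an unadjusted p under 0.05. The smallest p that belongs to a gene with a symbol of its own was that of Gfra3, a receptor for the growth factor artemin, at 4.07 and 3.52 CPM against 2.76 and 1.22 CPM. Because no gene passed the test, promoters were not searched for the Egr1 binding motif.

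The newborn libraries, 2 labelled knockout and 2 wild type from other animals, set the labelled knockout against a different control. Their titles give no eyelid state, so that it is not known to be the same in both newborn groups, unlike in the closed eyes of day 3. Almost no lens reads were held by 1 of the labelled-knockout newborn libraries. Without overlap, 36% of all genes were higher and 34.9% lower in the labelled-knockout newborns. Of the 10 genes named above as higher at day 3, 5 were also higher without overlap in the newborns and 0 were lower. Csf1r was at 104 and 82.9 CPM in the labelled-knockout newborns against 33.2 and 39.2 CPM, and Fcgr3 at 15.6 and 15.99 CPM against 4.95 and 4.84 CPM. Of the 10 genes that the same rule gave as lower, 0 were lower without overlap in the newborns and 4 were higher. Krt14, lower in the labelled-knockout closed eyes of day 3, was at 1499 and 2526 CPM in the labelled-knockout newborns against 105 and 223 CPM. The day 3 and newborn differences were not tested against each other, and the part of eyelid state in the newborn differences was not tested.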

How the data were processed

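Each library's deposited table held the authors' raw read counts and their RPKM values for 24373 transcripts with 20418 gene symbols. The submitters' processing notes name the build mm8 and the tools TopHat2 2.0.11, SAMtools, Bowtie 0.12.9 and CASAVA 1.8, while the annotation release and the counter are not given in the sources used here. Per the labels' protocols, RNA was selected for poly(A)+, libraries did not keep the strand and were amplified for 18 cycles; the labels mention fixatives in one place and RNAlater in another. Overlapping and near-identical genes may therefore share reads.

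The transcript with the highest mean count over all files was kept for each symbol, about 80% of reads. Counts were scaled by TMM and tested in R 4.3.3 with edgeR 4.0.16 (filterByExpr, glmQLFit, glmQLFTest, Benjamini-Hochberg adjusted p threshold 0.05). Eyes of 1 mouse in 1 eyelid state were summed, giving 2 labelled-knockout closed, 1 heterozygous closed and 3 labelled-knockout open samples. E24 and E29 each entered as a closed and as an open sample with no mouse term. The SE, p and intervals of edgeR treat these samples as independent. In limma-voom over 8 eyes the mouse was a random block, with a correlation of 0.32 within a mouse. The lone heterozygous mouse is assumed to vary like the others. The fold changes of genes with under 4 reads in a group depend on the prior count and are replaced by read counts and ratios. RPKM served only for the minimum of 1. DESeq2 1.42.0 and limma 3.58.1 gave alternatives. Genes were named by rule: Egr1, the 10 smallest p in each direction without overlap of eyes and with 1 RPKM or more on average on the higher side (as under 5 passed), and up to 4 genes with the smallest p in each of 35 lists and the neighbours of Egr1; others are said to be chosen after their values were seen, as were Cryaa, Sftpc, Scgb1a1, Ms4a1 and the lung and B lymphocyte lists. The groups and lists were chosen with earlier results of these data known. Among the genes that the rule gave as lower, 1 is not reported here.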

Additional observations from a re-analysis of the deposited data

Results flagged for a closer look

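In the open eyes shown for comparison, 1 of 4 values stood apart by Dixon's criterion for 1 of the genes read there, a test that marks about 1 group in 20 by chance. Cd79a was at 61.3 CPM in the OD eye of E32 and at 3.62 to 4.91 CPM in the other open eyes.

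For 4 of the genes with lower values in the labelled-knockout closed eyes of day 3, both newborn labelled-knockout libraries lay above both newborn wild types. These are 4 of the 10 genes that the rule gave as lower, beside 36% of all genes that were higher without overlap in the newborns. The day 3 log2 fold changes were -5.89 for F7 and -3.27 for Gcnt1. Capsl had 1 read in the labelled-knockout and 125 in the heterozygous closed eyes, a ratio of 118 (95% counting interval 20.8 to 4702), and Areg had 3 and 107 reads, a ratio of 33.7 (11.2 to 166). In the newborns F7 was at 1.10 and 0.652 CPM against 0.630 and 0 CPM, Gcnt1 at 5.99 and 5.29 CPM against 4.02 and 2.48 CPM, Capsl at 0.866 and 0.767 CPM against 0.388 and 0.2998 CPM, and Areg at 3.20 and 7.67 CPM against 0.339 and 0.2998 CPM. In all 4 genes the OD eye of E28 was several fold above its OS eye at day 3, as given above. The counting intervals do not cover that difference between eyes. The difference between the ages was not tested, and the control was heterozygous at day 3 and wild type in the newborns. The newborn titles also give no eyelid state, whereas the day 3 eyes compared here were closed.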

How the results depend on the processing

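The count of 0 genes passing held under every alternative run: other scalings, filters, tools, sets of eyes, all transcript rows, and each eye left out. Genes at an unadjusted p under 0.05 numbered 140 with DESeq2's size factors, 131 with the authors' library totals, 163 of 17945 without a filter, 14 of 8565 at a mean of at least 5 RPKM, 226 of 15442 with closed eyes only, 374 of 14982 with the 4 closed eyes as separate samples and 104 to 336 with 1 eye left out. With 1 labelled-knockout eye left out, an alternative added after seeing the data, the eyes that do not overlap numbered 4674 to 5040 genes higher and 4886 to 5402 lower; fewer eyes give more such genes by construction. Fold changes turned sign under limma-voom over 8 eyes for Ager (-0.60), Scgb1a1 (-0.80), Sftpb (-1.07) and Sftpc (-0.72), all lung genes; the cause was not tested. With each eye left out in turn they ran from -2.79 to 1.67 for Ager, -2.80 to 1.403 for Scgb1a1, -3.51 to 1.27 for Sftpb, -3.02 to 1.54 for Sftpc, -0.56 to 1.99 for Egr4, -0.52 to 0.71 for Nab2 and -0.15 to 5.51 for Gfap, and Egr1 from 0.60 to 1.09. Fold changes of genes with no read left in either group gave no value. No paired analysis was possible because the heterozygous eyes come from 1 mouse and share no replicate number with the labelled-knockout mice, and the newborn values come from no test. With 1 heterozygous mouse, a difference between genotypes cannot be told apart from a difference between mice.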
